A study of Mus musculus with 12 samples.

Results

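Clone mB4 is a neural progenitor (NPC) line that was derived from the male (XY) embryonic stem (ES) line F1-23, a hybrid of the mouse strains 129Sv and Cast/EiJ. It was set against mC3, mE6 and mG3, the other NPC clones of the same ES line (sister clones, n = 3), with 1 library per clone and no treatment in any group. All 4 clones carry 1 genome of each strain, so that a read over a strain variant shows the allele it came from. Also used were 4 NPC clones of the female (XX) hybrid line F1-21.6 (clones 129, C2, G4 and E1.2) and both ES lines, which had been kept on feeder cells with leukaemia inhibitory factor. Autosomal genes were selected by allele use or level. Of 14415 autosomal genes among 14899 in all, 49 were monoallelic in mB4 and biallelic in every sister, 21 were biallelic in mB4 and monoallelic in every sister, and 4 imprinted genes were biallelic in mB4 and monoallelic in every testable sister. A gene counted as monoallelic with at least 20 counts and a major allele of at least 85%, and as biallelic with a major allele of at most 70%. By level, 9 genes lay far above and 2 far below every sister in FPKM, far meaning at least 4-fold on the scale of FPKM + 1. FPKM are read fragments per transcript length and library size.

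Most autosomal genes are transcribed from both parental copies. In imprinted genes the copy is fixed by parental origin, through DNA methylation set in the egg or sperm. In random monoallelic expression a cell uses either copy, and its daughters keep that choice, so that clones of the same cell type can differ. NPC resemble the radial glia that give rise to neurons and glia of the brain.

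The mB4 library was the shallowest of the 4, with 72230497 allele-informative counts, against 82161686 to 91955553 in the sisters. The NPC label was checked against markers, and 29 of 30 progenitor markers were found in the table, all above 0.1 FPKM in mB4. Their rows summed to 7016 FPKM in mB4, against 5898 to 8592 FPKM in the sisters. The bar of 0.1 FPKM does not separate cell types, since all 9 astrocyte markers in the table passed it too. So did Klf4, Esrrb and Klf2 of 4 pluripotency markers, but that list summed to only 4.65 FPKM in mB4. The endoderm list summed to 5.46 FPKM in mB4. Of 5 endothelial and microglial markers in the table, Pecam1, Cdh5 and Ptprc were under 0.1 FPKM in mB4, while Kdr had 0.527 and Cd68 1.70 FPKM, and their sum was 2.35 FPKM in mB4, against 1.77 to 2.37 FPKM in the sisters. Of 10 fibroblast and muscle markers, Col1a1, Col3a1, Pdgfrb and Postn were under 0.1 FPKM in mB4, while Fn1 had 9.31 and Prrx1 4.14 FPKM, and the sum was 15.4 FPKM in mB4, against 18.2 to 27.8 FPKM. The median X-linked 129 share was 100% in mB4 and in every sister. A male inherits its X chromosome from the mother, which makes 129 the maternal and Cast the paternal genome of these clones. Nothing in the labels gives repeat cultures of mB4, so a difference of the clone cannot be told apart from one of its library, and p-values measure only the spread among 3 sister libraries.

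Of the 4 clones, mB4 had the lowest share of monoallelic genes. In mB4, 719 of 12332 testable autosomal genes were monoallelic, or 5.83% (exact Clopper-Pearson 95% interval 5.42 to 6.26%). The sister values were 6.41% in mC3, 6.95% in mE6 and 6.42% in mG3, a mean of 6.59% ± 0.308 (SD, n = 3). The mB4 value lay below all 3, by 0.762 percentage points from their mean, and the smallest p an exact permutation test of 1 against 3 can give is 0.25. Of the monoallelic calls in mB4, 50.8% were on the 129 allele. Intervals cover counting error only.

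Of 36 testable rows on the lists of imprinted genes, 24 were biallelic and 9 monoallelic in mB4, against 19 and 14 of 36 in mC3, 14 and 17 of 36 in mE6, and 19 and 9 of 33 in mG3. Some were biallelic in all 4 clones, such as Ube3a with a 129 share of 55.4% in mB4, against 54.4%, 55.4% and 54.7% in mC3, mE6 and mG3. In 4 genes mB4 was biallelic and every testable sister monoallelic. Peg3, Mest, Nap1l5 and Usp29, all known as paternally expressed, had counts of both alleles in mB4 and nearly all counts from the paternal Cast allele in each sister with enough counts. The same rule found 1 gene in mC3, 0 in mE6 and 1 in mG3. Their promoters are shown because the methylation that imprints them lies there in the mouse. The windows run from 250 bases before to 50 after the gene start, from RefSeq (build GRCm38.p6), 5′ to 3′ on the gene's strand, with CG pairs, the sites of methylation, in capitals.
Peg3, chr7:6730370-6730669, minus strand: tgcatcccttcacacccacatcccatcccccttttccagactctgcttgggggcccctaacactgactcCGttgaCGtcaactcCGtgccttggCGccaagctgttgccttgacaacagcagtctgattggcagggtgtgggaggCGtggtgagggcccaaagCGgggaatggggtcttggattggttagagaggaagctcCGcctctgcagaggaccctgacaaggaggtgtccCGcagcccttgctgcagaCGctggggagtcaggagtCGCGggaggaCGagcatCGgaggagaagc
Mest, chr6:30737800-30738099, plus strand: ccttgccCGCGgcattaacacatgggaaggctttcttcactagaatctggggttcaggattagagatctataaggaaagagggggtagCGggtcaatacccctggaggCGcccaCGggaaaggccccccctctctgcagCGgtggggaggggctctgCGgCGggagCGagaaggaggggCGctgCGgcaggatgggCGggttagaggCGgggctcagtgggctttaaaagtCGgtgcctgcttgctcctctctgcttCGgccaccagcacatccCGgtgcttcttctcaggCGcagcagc
Nap1l5, chr6:58907077-58907376, minus strand: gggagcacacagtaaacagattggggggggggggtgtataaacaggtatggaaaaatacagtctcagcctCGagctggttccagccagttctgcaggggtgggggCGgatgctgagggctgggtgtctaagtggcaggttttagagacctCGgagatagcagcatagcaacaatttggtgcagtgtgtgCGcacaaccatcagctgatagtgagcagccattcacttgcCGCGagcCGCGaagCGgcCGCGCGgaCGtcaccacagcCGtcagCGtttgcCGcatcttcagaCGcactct
The motif CG reads the same on both strands and cannot overlap itself, and these windows hold 13, 17 and 17 copies. The median of 32851 mouse promoters was 7, and 37.9% of them hold at least as many as Peg3 and 31.4% at least as many as Mest or Nap1l5. The Usp29 window lies on the plus strand and shares 263 bases with that of Peg3, from which the gene pair is transcribed in opposite directions. No methylation was measured in these libraries.

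Peg3 encodes a zinc finger protein and lies on chromosome 7 at 6656608 to 6683163 (mm9, as all gene positions). Its 129 share was 51.9% in mB4 (interval 51.4 to 52.3%), against 0.00853% in mC3, 0.0830% in mE6 and 0.0156% in mG3. In mB4 both copies had nearly equal counts, and in the sisters the paternal copy had nearly all. Counts of the Cast allele, scaled to the library total (CPM), were 293 in mB4, against 262, 358 and 220 in mC3, mE6 and mG3. The mB4 value lay within the sister range. Counts of the 129 allele were 316 CPM in mB4, against 0.0223, 0.298 and 0.0343 CPM in the sisters. Summed over both alleles, Peg3 had 609 CPM in mB4, 2.17 times the sister mean, and a log2 fold change of 1.12 (SE 0.29, edgeR adjusted p = 0.960). Usp29, a deubiquitinase gene on the other side of the promoter, had a 129 share of 45.2% in mB4, against 0.264%, 1.12% and 0.303% in mC3, mE6 and mG3. Its Cast allele had 4.38 CPM in mB4, against 4.22, 5.47 and 3.77 CPM in the sisters, again inside their range, and its 129 allele added 3.62 CPM in mB4. Apeg3, an antisense transcript inside Peg3, had nearly the same shares, but without strand its reads cannot be told apart from those of Peg3.

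Mest, a gene for a hydrolase-like protein of the endoplasmic reticulum on chromosome 6, went with a different balance of levels. Its 129 share was 51.8% in mB4, against 1.10%, 0.110% and 0.132% in mC3, mE6 and mG3. The Cast allele had 352 CPM in mB4, against 662, 554 and 659 CPM in the sisters, and the 129 allele 378 CPM, against 7.37, 0.608 and 0.870 CPM. Here the paternal copy lay below every sister, and the total of 730 CPM in mB4 was 1.16 times the sister mean. Nap1l5, a nucleosome assembly protein gene that lies within another gene on chromosome 6, had a 129 share of 53.5% of 1802 counts in mB4. Its Cast allele had 12.1 CPM in mB4, against 10.2 CPM in mC3 and 9.76 CPM in mG3, while mE6 had 3 counts of the gene in all. These genes were chosen on their shares, so no test of the shares is given. In the XX clones Peg3 was biallelic throughout, with 129 shares of 47.6%, 51.6%, 49.9% and 45.7% in clones 129, C2, G4 and E1.2, so that its use of both alleles sets mB4 apart only among XY clones. The XY ES line had a Peg3 share of 9.05%.

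**Figure D1:**
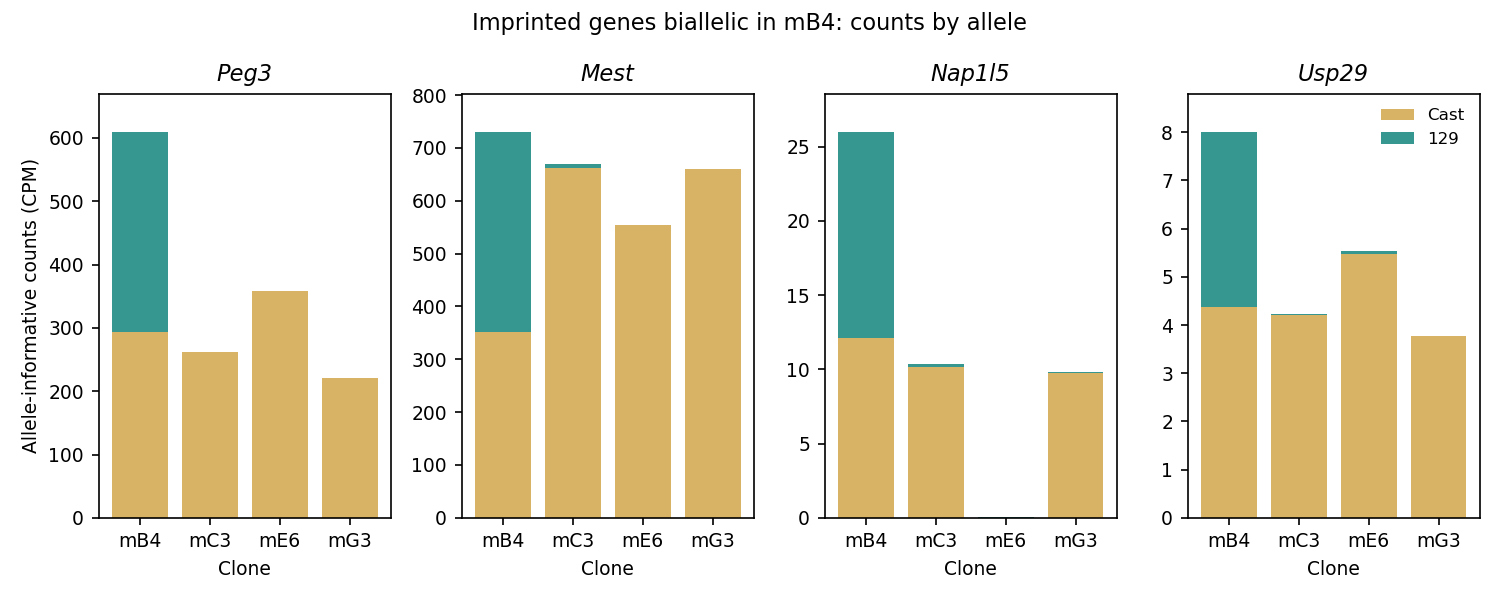
Allele-informative counts in CPM (vertical axes) of 4 imprinted genes in clone mB4 and in sisters mC3, mE6 and mG3, as bars stacked by allele, 1 library per bar. The 129 allele is present in mB4 at about the height of the Cast allele, with 316 CPM for Peg3 and 378 CPM for Mest, and is nearly missing in the sisters.

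Among the 9 rows with a single allele in mB4, Peg10, a retrotransposon-derived gene, and its neighbour Sgce, which encodes epsilon-sarcoglycan, had 129 shares of 0.0303% and 0.107% in mB4. Peg10 in mG3 was the exception among sisters at 25.4%. Snrpn;Snurf, a splicing factor locus, had a share of 0.0673% in mB4, against 0.0633 to 0.670% in the sisters. Airn and Peg13, both non-coding RNAs, had shares of 0.0462% and 0.0615% in mB4, and Ndn, a growth regulator, 6.18%. Not every sister used a single allele here. Airn was biallelic in mG3, with 40.6% of 64 counts from 129. Ndn was biallelic in mC3 at 42.9%, against 0.699% in mE6 and 5.38% in mG3. For Gnas, a G protein subunit locus, 97.9% of only 48 counts came from 129 in mB4. Plagl1, a zinc finger regulator known as paternally expressed, went the other way from Peg3. Its 129 share was 0.365% in mB4, against 54.6%, 45.9% and 73.9% in mC3, mE6 and mG3. Its total level was 19.8 CPM in mB4, against 47.1, 60.4 and 97.9 CPM, while its Cast allele had 19.7 CPM in mB4, against 21.4, 32.7 and 25.5 CPM. The Plagl1 groups did not overlap in share, for which the gene was picked out, or in total level (log2 fold change -1.79, SE 0.49). Of the 11726 genes testable in all 4 clones, 24.6% had a CPM below every sister. The order of the totals alone therefore says little. Cdkn1c, a cell cycle inhibitor known as maternally expressed, had 0.444% of 225 counts from 129 in mB4, against 100% in mC3 and mE6, while mG3 had 0 counts, fewer than the 3 counts taken as the detection floor. Kcnq1ot1, which overlaps Kcnq1, was biallelic in mB4 at 61.8% and in mG3 at 56.0%, so it did not set mB4 apart.

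The genes monoallelic in mB4 and biallelic in every sister numbered 49, or 0.418% of 11726 genes testable in all 4 clones. The same rule gave 33 in mC3, 64 in mE6 and 39 in mG3, so mB4 lay inside the range of its sisters. In 22 the remaining allele was 129 and in 27 Cast, and the genes lay on 17 chromosomes. Only 23 of the 49 had at least 100 counts in all 4 clones. Just inside the threshold lay Lag3 with 85.0% and Fam178b with 85.7% on the major allele, and just outside it an unnamed transcript with 84.5% and Tshr with 84.1%. In the XY ES line 37 of 44 testable members were biallelic (84.1%), against 94.5% of all genes biallelic in the 3 sisters and testable there. In at least 1 XX clone 14 of 49 members were monoallelic (28.6%), against 3.70% of all genes biallelic in the 3 sisters. Leaving out mC3, mE6 or mG3 from the sisters raised the number to 73, 74 and 81.

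Members with roles in the nucleus, in mitochondria and in stress signalling are given first. Mbd1, which encodes a protein that binds methylated CG pairs, lies on chromosome 18 and had a 129 share of 0.0475% of 12620 counts in mB4, against 43.3%, 45.6% and 47.7% in mC3, mE6 and mG3. Sesn2, a stress-induced sestrin that restrains growth signalling, had a share of 0.0820% in mB4, against 46.6%, 48.8% and 49.8%. Sun1, a protein of the inner nuclear membrane that links nucleus and cytoskeleton, had a share of 99.8% in mB4, against 51.6%, 51.9% and 51.7%. In each of these genes the sisters lay close together and mB4 at the end of the scale. Atpif1, the inhibitor of mitochondrial ATP synthase, had a share of 0.112% in mB4, against 45.8 to 49.2% in the sisters. Ptpmt1, a mitochondrial phosphatase of cardiolipin synthesis, had a share of 0.237% in mB4, against 44.1 to 48.6%. Cpt1c, the brain form of carnitine palmitoyltransferase, had a share of 3.21% in mB4, against 37.0 to 39.9%.

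Members at the cell surface and outside the cell included Mmp16, a membrane-bound matrix protease, with a 129 share of 98.7% in mB4, against 49.5 to 53.4% in the sisters. Efemp2, an elastic fibre protein, had a share of 94.6% in mB4, against 39.5 to 55.4%. Tnfrsf10b, a death receptor for TRAIL, had a share of 3.52% in mB4, against 53.8 to 58.0%, and Il10rb, a cytokine receptor subunit, 1.15% in mB4, against 33.7 to 45.8%. Fv1, a restriction factor against murine retroviruses, had a share of 0.132% in mB4, against 51.7 to 55.9%. Trim71, an RNA-binding ubiquitin ligase, was less complete at 92.1% in mB4, against 53.2 to 68.4%. Tmem50a and Itpripl1, for membrane proteins, had shares of 0.731% and 1.27% in mB4, and 3830406C13Rik had a share of 100% of 582 counts. Celsr3, a cadherin of planar cell polarity, was the only member on the gene lists besides Mbd1, with 4.35% of just 23 counts from 129 in mB4. Sun1, Dnajc8 and Cpt1c fall outside the naming rule and were named after their values were seen.

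**Figure D2:**
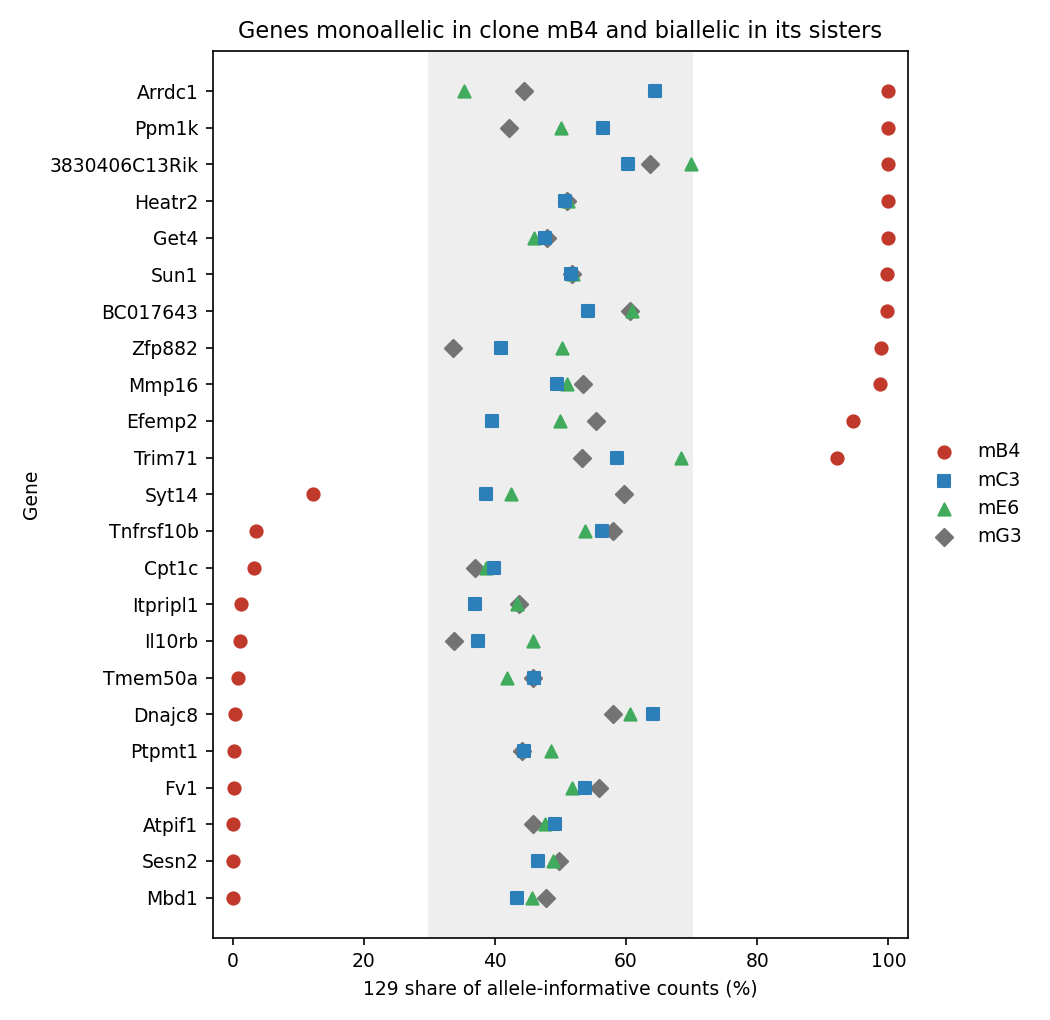
The 129 share of allele-informative counts in percent (horizontal axis) of the 23 genes with at least 100 counts in all 4 clones that were monoallelic in mB4 and biallelic in every sister. Each symbol is 1 clone, and the grey band spans 30 to 70%. All sister symbols lie in the band and mB4 lies at the left or right edge, least so for Syt14 at 12.3% and Trim71 at 92.1%.

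A test of allele ratios across all 11726 genes called 22 (0.188%, edgeR quasi-likelihood interaction of allele and clone, BH adjusted p under 0.05), and 604 had an unadjusted p under 0.05. Of the 22, 9 were shifted towards 129 in mB4 and 13 towards Cast. The set of 49 holds 17 of these 22, but it was selected on the same shares, so nothing is read from that number. The other 5 were Sord, Tcp11l2, Gnao1, Adhfe1 and a joined entry of Miip and Mfn2. Sord, which encodes sorbitol dehydrogenase, had a 129 share of 0.258% in mB4, against 70.5%, 71.2% and 64.4% in mC3, mE6 and mG3 (edgeR adjusted p = 0.00483). It missed the set because 2 sisters lay above 70%. Tcp11l2 had a share of 98.2% in mB4, against 26.7%, 26.9% and 23.9% in the sisters (edgeR adjusted p = 0.00940). Without mC3, mE6 or mG3 the test called 34, 10 and 11 genes.

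Totals of the monoallelic set were mostly lower in mB4. The rule set a minimum count over both alleles but no direction of level. Of the 49 members 35 had a CPM below every sister, against 25.8% of the 9479 testable genes biallelic in all sisters. The median log2 fold change was -0.86 over the 49 members and -0.02 over those 9479 genes. Of the 23 members with at least 100 counts, 22 lay below every sister, again against 25.8% of such genes. Their total in mB4 was a median 0.537 of the sister mean, with a range of 0.178 for Syt14 to 0.783 for Ppm1k. When only the allele used in mB4 was compared, the median ratio was 1.02, with a range of 0.289 to 1.57, and 19 of 23 ratios were within 1.5-fold of 1. Sesn2 had 176 CPM in mB4, against 400, 294 and 374 CPM in mC3, mE6 and mG3. Its Cast allele alone had 176 CPM in mB4, against 214, 150 and 188 CPM, inside the sister range. For Sun1 the 129 allele had 142 CPM in mB4, against 152, 139 and 166 CPM in the sisters, and Mbd1 had 182 CPM of Cast in mB4, against 184, 150 and 144 CPM. Of these 23, the 4 outside 1.5-fold were Syt14, Tnfrsf10b and Zfp882, with ratios of 0.289, 0.635 and 0.661 for the remaining allele, and Ppm1k with 1.57. The minimum of 100 counts applied to mB4 too, so it left out members that were low there, such as Meis2, whose Cast allele had 0.793 CPM in mB4, against 34.6, 12.8 and 6.17 CPM in mC3, mE6 and mG3.

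**Figure D3:**
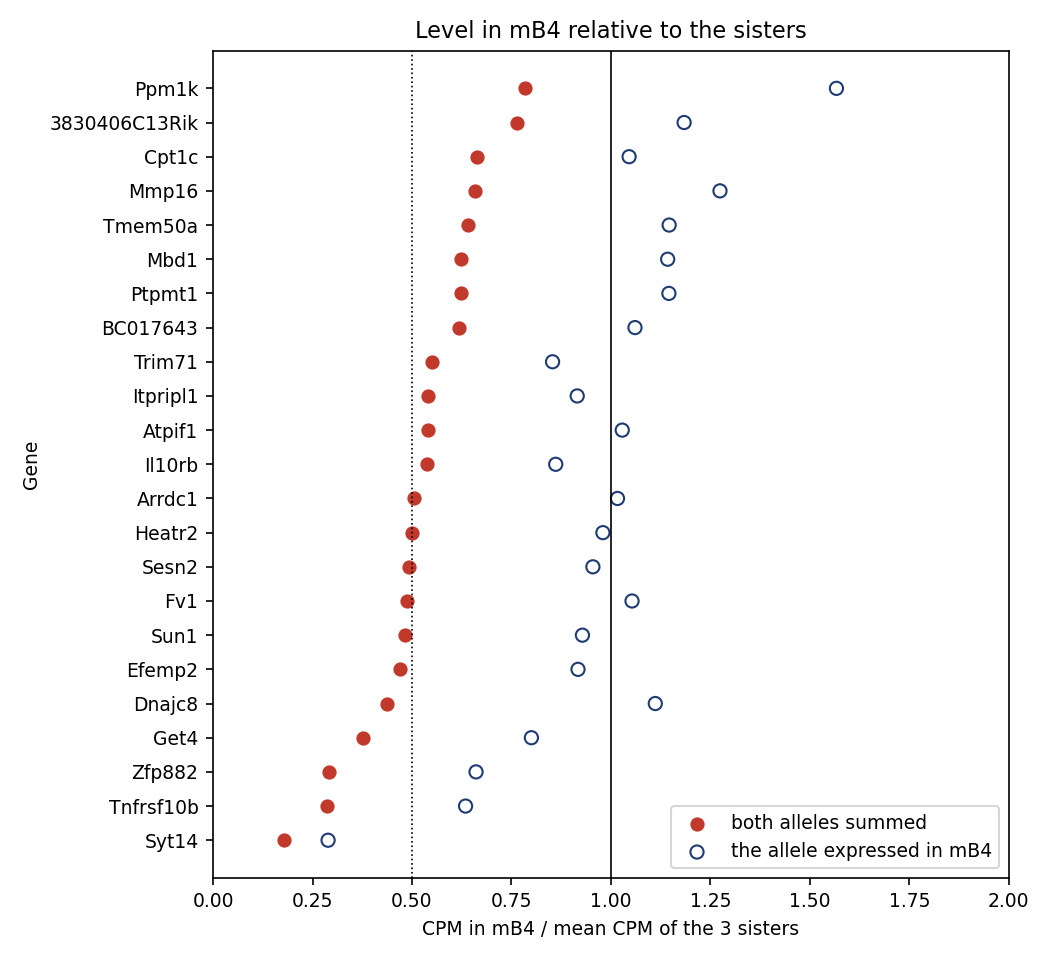
CPM in mB4 divided by the mean CPM of the 3 sisters (horizontal axis) for the 23 well-counted monoallelic members. Filled circles sum both alleles and have a median of 0.537, while open circles count the allele expressed in mB4 and have a median of 1.02. The solid line marks equal levels and the dotted line a ratio of 0.5.

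In 2 places the members were direct neighbours, with 6 genes in all. On chromosome 4, Sesn2 (132048098 to 132066481), Atpif1 (132086470 to 132089939) and Dnajc8 (132091474 to 132109657), the last a spliceosome-associated chaperone partner, were expressed from Cast in mB4. The run spans 61.6 kb. Dnajc8 had a 129 share of 0.345% in mB4, against 58.0 to 64.1% in the sisters. The tested genes next to the run, Med18 and Eya3, had shares of 44.8% and 50.2% in mB4, and their totals were 0.880 and 0.910 of the sister mean. Inside the run the totals were 0.494, 0.540 and 0.437 of the sister mean. On chromosome 5, Heatr2 (139626177 to 139662459), a dynein assembly factor, Sun1 (139676591 to 139725793) and Get4 (139727988 to 139746004), which helps to insert proteins into membranes, were expressed from 129 in mB4 over 120 kb. Get4 had 0 of 1113 counts from Cast in mB4, with an exact Clopper-Pearson 95% interval of 99.7 to 100% on 129. The 129 share of Heatr2 was 100% in mB4, against 50.7 to 51.1% in the sisters. Next to this run Prkar1b was biallelic in mB4 at 54.9%, against 25.4%, 1.10% and 9.86% in mC3, mE6 and mG3, and 3110082I17Rik had a share of 49.2% in mB4. All 6 genes of the runs were biallelic in the XY ES line and in the XX clones, with 129 shares between 42.4% and 66.5% in the XX clones.

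**Figure D4:**
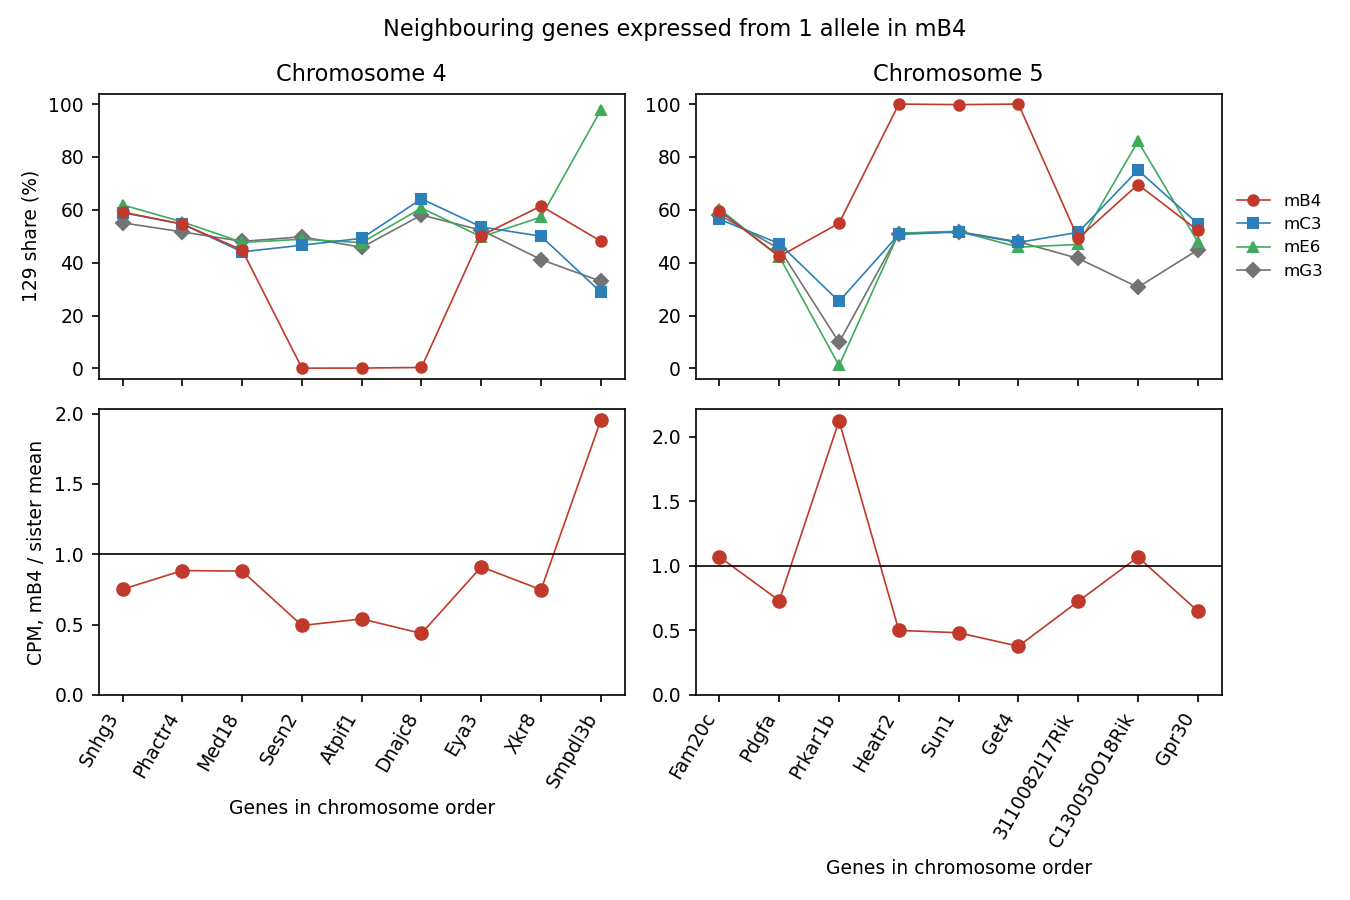
Genes in chromosome order (horizontal axes) around the 2 runs of neighbours, with the 129 share in percent for each of the 4 clones above and the CPM of mB4 divided by the sister mean below. In mB4 the share drops to about 0% over Sesn2, Atpif1 and Dnajc8 and reaches about 100% over Heatr2, Sun1 and Get4, while the sisters stay between 45.8% and 64.1% in all 6 genes.

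Genes that used opposite alleles in mB4 and in at least 1 sister also numbered 49, against 62, 58 and 50 by the same rule in mC3, mE6 and mG3. Hox genes of the HoxD cluster, which set position along the body axis, were among them. Hoxd8 on chromosome 2 had a 129 share of 0.217% in mB4, against 48.8% in mC3, 99.0% in mE6 and 47.8% in mG3. Its neighbours Hoxd9, 1700109F18Rik and Hoxd3 had shares of 0.476%, 2.38% and 2.27% in mB4, against 99.6%, 100% and 100% in mE6. All 3 used both alleles in mC3 and mG3, with shares of 56.7 to 73.5%. The cluster was thus on Cast in mB4, on 129 in mE6 and on both in the other sisters, while Mtx2, a mitochondrial gene beside it, stayed biallelic at 42.1% in mB4. Hoxd8 totals were lower in the clones with 1 allele in use, with 6.65 CPM in mB4 and 8.64 CPM in mE6, against 12.4 and 13.3 CPM in mC3 and mG3. Hoxd3 did not follow this order, with 0.635 CPM in mB4 and 1.15 CPM in mE6, against 2.24 CPM in mC3 and 0.905 CPM in mG3. Grm5, a metabotropic glutamate receptor, had a share of 9.60% in mB4, against 96.5% in mC3 and 64.1 to 65.6% in the others. Lyplal1, a lysophospholipase-like gene, had a share of 99.9% in mB4 and 99.8% in mE6, against 0.101% in mG3 and 47.7% in mC3. Mfsd10, a transporter family gene, had a share of 99.2% in mB4, against 2.84% in mE6, 0.585% in mG3 and 58.0% in mC3. Also in this set were 8430419L09Rik, AA474331 and Itpripl2, the last with 3.40% in mB4, against 87.5% in mC3.

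The mirror set, biallelic in mB4 and monoallelic in every sister, held 21 genes, or 0.179% of 11726. By this rule mC3 had 8, mE6 had 4 and mG3 had 14 genes, so mB4 had the highest number of the 4 clones, also with at least 100 counts, where mB4 had 8 and each sister 3. These 8 lay on 6 chromosomes and are not independent. They include the imprinted genes Peg3, Usp29 and Mest, and Peg3 and Usp29 share a promoter region. The lead of mB4 thus rests in part on 1 locus counted more than once. Without mC3, mE6 or mG3 the number for mB4 was 48 each time. Totals in this set were mostly higher in mB4. Of the 21, 14 had a CPM above every sister, where 24.0% of all 11726 genes did, and the median log2 fold change was 0.73 against -0.01. Most of those 11726 genes were biallelic in the sisters. Unlike for the monoallelic set, this background was not limited to genes with the same allele use in the sisters. Beside the imprinted genes, Pdzrn4, a ubiquitin ligase gene, had a 129 share of 57.6% in mB4, against 1.01%, 0.104% and 0.535% in mC3, mE6 and mG3. Its Cast allele had 15.2 CPM in mB4, against 12.1, 11.9 and 17.0 CPM, and its 129 allele added 20.7 CPM. Pde7b, a cyclic AMP phosphodiesterase, had a share of 56.5% in mB4, against 98.5%, 99.6% and 100%, and here the Cast allele was added, with 8.31 CPM in mB4, against at most 0.134 CPM in the sisters. Bmp7, a secreted growth factor that promotes glial fate, had a share of 45.6% in mB4, against 0.744%, 12.2% and 1.37%, but its total of 81.3 CPM in mB4 was close to the 79.5 CPM of mC3. Icam1, an adhesion receptor, was the member below every sister, with 1.47 CPM in mB4, against 1.60 to 4.00 CPM. Kcnv1, a potassium channel subunit, had a share of 34.5% in mB4, against 3.47%, 0.444% and 98.7%, and Aqp4, the astrocyte water channel, 44.6% of 92 counts in mB4, against 1.89 to 9.43%.

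By level, no gene passed the test between mB4 and its sisters. The edgeR quasi-likelihood test called 0 of 13670 genes higher (0%) and 0 lower (0%), with 592 at an unadjusted p under 0.05. DESeq2 called 68 higher (0.507%) and 98 lower (0.731%) of 13404, and limma on log2(FPKM + 1) called 1, an entry that joins Mir1940 and Snora47. With 1 library against 3, each test takes mB4 to vary as the sisters do. Genes were therefore named by the FPKM rule alone, and none passed edgeR. Genes chosen on their levels are given below without p-values, since a test on the same reads would add no support. Without mC3, mE6 or mG3 that rule gave 18, 15 and 13 genes far above and 3, 5 and 3 far below the remaining sisters.

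The 2 genes far below every sister (0.0139% of 14415) were Lmna and Gstp1. Lmna on chromosome 3, which encodes the nuclear lamins A and C, had 0.609 FPKM in mB4, against 13.3, 16.7 and 18.2 FPKM in mC3, mE6 and mG3. The mB4 level was 21.9-fold below the nearest sister, with 89 counts, against 1924 to 2918 counts (log2 fold change -4.41, SE 0.35). The 129 share of the counts left in mB4 was 55.1%, so the level was low on both alleles. XX clone 129 had a like level of 0.639 FPKM, while the other XX clones had 15.0 to 17.4 FPKM. Gstp1, a glutathione transferase on chromosome 19, had 0.152 FPKM in mB4, against 37.7, 6.07 and 54.4 FPKM. The sisters of mB4 used 129 almost alone for Gstp1, with shares of 98.4 to 100%. Among XX clones Gstp1 had 0.160 FPKM in clone 129, 0 in G4 and E1.2, and 131 FPKM in C2. A near-absence of Gstp1 was thus not particular to mB4. The 2 rows just outside the rule were joined entries with microRNA genes whose counts did not differ as their FPKM did.

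Among the 9 genes far above every sister (0.0624%) were an early response gene, a transporter and adhesion proteins. Arc, an immediate early gene of neurons, had 13.3 FPKM in mB4, against 0.0573, 0.229 and 0.584 FPKM in mC3, mE6 and mG3, with 98.7% of 4154 counts from 129. The sisters were split in allele, with 100% of 5 counts from 129 in mC3, and 1.69% and 4.04% in mE6 and mG3. Among XX clones the Arc level was 12.3 FPKM in C2, 9.70 in E1.2, 3.61 in G4 and 0.0511 in clone 129. A high Arc level was thus not particular to mB4. S100b, a calcium-binding protein of astrocytes, had 62.3 FPKM in mB4, against 2.94, 10.7 and 3.30 FPKM (log2 fold change 3.44, SE 0.76). XX clone E1.2 had more S100b, at 82.9 FPKM, and the other XX clones 6.16 to 22.1 FPKM. Slc50a1, a sugar transporter, had 23.4 FPKM in mB4, against 4.36, 4.25 and 0 FPKM. It was biallelic in mB4 at 48.8%, against 95.1% in mC3 and 0.300% in mE6. 1190002H23Rik had 18.8 FPKM in mB4, against 3.50, 0.0226 and 0.0821 FPKM, and Prkcdbp, a caveolar protein, 3.07 FPKM in mB4 and was listed at 0 in all sisters, with only 23 counts in mB4. In the XX clones Slc50a1, 1190002H23Rik and Prkcdbp had at most 0.300, 1.19 and 0.0479 FPKM. The ES lines did express them, with 7.92, 3.59 and 2.37 FPKM in the XY line and 10.2, 9.35 and 1.22 FPKM in the XX line. Mir1940 with Snora47 had 15 counts in mB4, against 13 to 39 counts in the sisters, so its FPKM of 111 in mB4, against 0 in the sisters, had no counterpart in the counts. On the log2 scale the gap to the nearest sister was 2.03 for Prkcdbp, just inside the rule, and 1.95 for Dcpp1 and 1.94 for Pcdhga5, just outside it.

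Clustered protocadherins, adhesion proteins whose variable exons are chosen cell by cell and which give neurons surface identities, made up the other 3. Pcdhgb4 had 15.1 FPKM in mB4, against 0.113, 0.065 and 0.245 FPKM in mC3, mE6 and mG3, Pcdhb4 8.86 FPKM, against 0.904, 0.776 and 0.216 FPKM, and Pcdha4 4.21 FPKM, against 0.207, 0.198 and 0.237 FPKM. All 3 lie in the cluster on chromosome 18. Some XX clones had more, with 18.4 FPKM of Pcdhgb4 in C2, and 8.29 and 11.2 FPKM of Pcdha4 in C2 and G4. Pcdhb4 had at most 5.15 FPKM in an XX clone, in E1.2. Isoforms of the alpha and gamma groups share their last exons, so their counts do not separate isoforms. Pcdhgb4 thus had 96371 counts in mB4, against 61754 to 93469 counts in the sisters. Pcdhb4 has its own exon and had 822 counts in mB4, against 101, 89 and 45 counts. Only 4.14% of these came from 129 in mB4, against 26.7 to 47.5% in the sisters. FPKM summed over the 15 alpha rows was 10.9 in mB4, against 1.69, 2.81 and 1.35, and over the 22 beta rows 113, against 84.9, 74.8 and 51.8. Over the 21 gamma rows it was 391 in mB4, against 191, 301 and 298. All 3 groups had their highest sum in mB4.

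**Figure D5:**
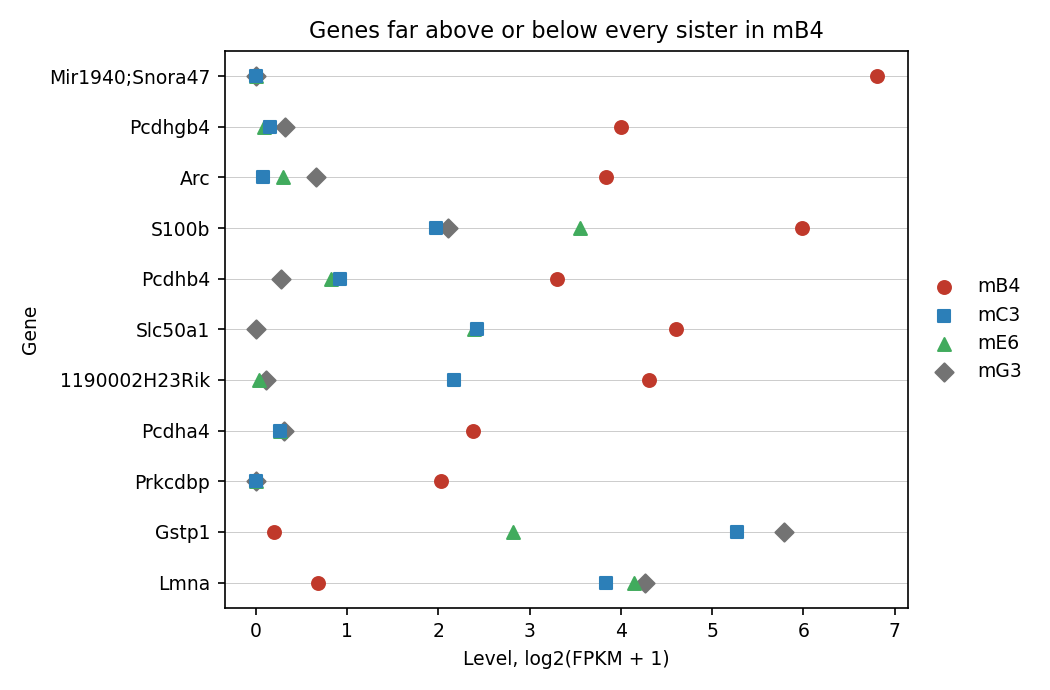
Levels as log2(FPKM + 1) (horizontal axis) of the 9 genes far above and the 2 genes far below every sister, each symbol being 1 clone. Sisters lie close together for Lmna (13.3 to 18.2 FPKM, against 0.609 in mB4) and spread widely for Gstp1 and Slc50a1.

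With a gap of at least 2-fold on the same scale, 43 genes lay above (0.298%) and 20 below (0.139%) every sister. Chl1, a neural adhesion molecule, had 48.7 FPKM in mB4, against 9.18, 13.9 and 9.59 FPKM in mC3, mE6 and mG3. It was biallelic in mB4 at 55.6%, against 18.1%, 2.95% and 6.88% from 129 in the sisters. Agt, angiotensinogen, had 5.28 FPKM in mB4, against 0.485, 0.768 and 0.958 FPKM, with both alleles in all 4 clones. XX clone E1.2 had more Agt, at 83.4 FPKM. Meis2, a homeodomain regulator and a member of the monoallelic set, had 0.259 FPKM in mB4, against 9.85, 5.14 and 3.28 FPKM. Its mB4 counts numbered 56, 1.79% from 129, against 1785 to 6115 counts in the sisters. Trip6, a focal adhesion protein, had 3.42 FPKM in mB4, against 17.6, 12.9 and 16.1 FPKM. Chl1, Agt, Meis2 and Trip6 were chosen after their values were seen.

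Gene lists for the cell types and pathways of these cells held no gene called by edgeR, which called no gene at all. The absence of calls therefore says nothing about the lists. Astrocyte markers stood highest, with 7 of 9 above every sister in FPKM, against 23.5% of all autosomal genes, a median log2 fold change of 0.77 and a summed level of 544 FPKM in mB4, against 304, 279 and 291 FPKM. Of the 7, Aqp4 and Clu were low, with 0.217 and 0.647 FPKM in mB4, against at most 0.184 and 0.485 FPKM. In CPM, Clu was lower in mB4 than in mC3, with 1.31 against 1.45. Sparcl1 and Aldoc made up most of the sum in mB4. Beside S100b, Sparcl1, a secreted matrix protein, had 259 FPKM in mB4, against 111, 95.9 and 149 FPKM, and the glycolytic enzyme Aldoc 153 FPKM, against 120, 101 and 59.5 FPKM. Gfap, the defining filament of mature astrocytes, was low everywhere, at 0.140 FPKM in mB4, against 0.0788 to 0.148 FPKM, and Gja1, the gap junction protein, lay below every sister. In bulk libraries, more cells of a type and more RNA per cell cannot be told apart, and the part of cell type in the S100b level was not tested. Of the neuron markers 5 of 10 lay below every sister and 1 above, where 23.5% did each way over all genes. Among the 5, Nefl, Eomes and Rbfox3 were near the floor and close to the nearest sister. They had 0.0758, 0.151 and 0.225 FPKM in mB4, against 0.0844, 0.170 and 0.239 FPKM there. The count therefore says little about the list. Gap43, a growth cone protein, had 11.6 FPKM in mB4, against 61.7, 34.2 and 32.1 FPKM, and made up most of the difference in the list's sum of 19.97 FPKM in mB4, against 42.2 to 71.0 FPKM. Among progenitor genes 9 of 30 rows lay above and 7 below every sister, near the background. In that list Tnc, a matrix glycoprotein of radial glia, had 192 FPKM in mB4, against 511, 412 and 490 FPKM, and Nes, their intermediate filament, 223 FPKM, against 298 to 347 FPKM.

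Most cell cycle genes lay slightly lower in mB4 in FPKM. Of 32 genes 24 were below every sister and 0 above, against 23.5% each way over all genes, with a median log2 fold change of -0.17. Not all of the 24 were lowest in CPM. Trp53 had 127 CPM in mB4, against 121 CPM in mC3, and Ccnb1 15.2 CPM, against 14.3 CPM in mC3. The differences were small, such as 387 FPKM of the cyclin Ccnd1 in mB4, against 397 to 436 FPKM, and 112 FPKM of the topoisomerase Top2a in mB4, against 128 to 143 FPKM. Regulators of DNA methylation and Polycomb had 9 of 22 rows below every sister and 1 above, with a median of -0.03. The methyltransferase Dnmt1 had 52.3 FPKM in mB4, against 57.4 to 63.7 FPKM, its partner Uhrf1 43.0 FPKM, against 43.0 to 54.6 FPKM, and the imprint-keeping factor Zfp57 3.03 FPKM, against 8.05, 1.56 and 2.99 FPKM. Mbd1 had 8.18 FPKM in mB4, against 13.5 to 16.0 FPKM. Lhx2, a forebrain regulator, had 13.9 FPKM in mB4, against 42.0, 34.5 and 37.7 FPKM. Fat4, an atypical cadherin, had 6.85 FPKM in mB4, against 2.45, 3.39 and 2.40 FPKM, and the list of interferon and antigen presentation genes had 4 of 17 above and 1 below every sister. By chromosome, the median 129 share in mB4 ran from 49.8 to 50.2% and the median log2 fold change from -0.07 to 0.05, so no autosome stood apart.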

How the data were processed

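RNA of the hybrid lines was sequenced as paired-end reads of 100 bases. The submitters' processing notes name SAMtools, TopHat 1.4.0, Cufflinks 1.3.0 and build mm9. For every gene, the authors deposited whole-number counts of allele-informative reads, a ratio giving the part from 129, and FPKM. Variant lists and further filters are not given in the sources used here. Levels were tested on counts summed over alleles and on the allele ratio with edgeR 4.0.16 (TMM, filterByExpr, quasi-likelihood, Benjamini-Hochberg over all autosomal genes tested), after tests on simulated data, with DESeq2 1.42.0 and limma 3.58.1 as alternatives. CPM used TMM-scaled totals. FPKM gaps were taken on log2(FPKM + 1). Gene starts were given 1 base higher than deposited, since this matched 5119 annotated starts against 432. Named genes were the 15 monoallelic, 8 biallelic and 8 opposite-allele genes with the highest lowest count and a single symbol, list members, and all imprinted genes of either kind. Members and lists were chosen with earlier results of these data known. Of 12 libraries 2 repeats were not used here. Some named genes are not reported here.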

Additional observations from a re-analysis of the deposited data

Results flagged for a closer look

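Of 33 sets of shares of named genes over the 4 XX clones, 6 had a clone far from the others. About 1 in 20 sets of 4 normally distributed values would pass the limit used. Many of these genes were named for their allele use, and their shares can jump between 1 allele and both. The rate over all genes was not tested, so 6 of 33 is not read as an excess over chance. Mbd1, monoallelic on Cast in mB4, had a 129 share of 0.123% in XX clone G4, against 42.7 to 45.8% in the other XX clones. Ptpmt1, also on Cast in mB4, had a share of 100% in XX clone 129, against 45.7 to 52.7%. Il10rb, on Cast in mB4, had a share of 75.0% in XX clone 129, against 39.2 to 43.6%. For 3830406C13Rik, on 129 in mB4 and biallelic in its sisters, XX clone E1.2 had a share of 81.4%, against 100% in the other XX clones. The imprinted entry Snrpn;Snurf had a share of 0.0930% in XX clone 129, against 42.1 to 46.3% in the other XX clones. All 4 XY clones had a like share, with 0.0673% in mB4 and 0.0633 to 0.670% in its sisters. For 8430419L09Rik, XX clone C2 had a share of 45.9%, against 0.0131 to 5.76%.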

How the results depend on the processing

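No paired analysis was possible because mB4 is a single library, so the groups share fewer than 2 replicate numbers. Levels differed most between tools, with 166 calls by DESeq2 (68 higher, 98 lower) and 1 by limma (1 higher), against 0 by edgeR, which also gave 0 with other scaling, without a count filter, with all 8 NPC clones and without each sister. Without each sister in turn, allele calls ran from 10 to 34 (4 to 17 towards 129, 5 to 17 towards Cast), and a quasi-binomial model called 8 towards Cast and 21 in all, 11 of them shared with the 22. The monoallelic set had 23 genes at 100 counts, 16 at 500 counts and 17 with biallelic taken as at most 60%, and 73 to 81 without each sister. The mirror set had 8, 5 and 11 genes at 100 counts, at 500 counts and with a major allele of at least 95%, and 48 to 48 without each sister. The imprinted set had 3 to 5 genes under these settings. Genes far above numbered 27 with a pseudocount of 0.1, 43 with a gap of 2-fold and 13 to 18 without each sister, and those far below 12, 20 and 3 to 5. The shortfall in percent monoallelic was -0.505 to -0.855 points over all settings. Members with under 100 counts have wide share intervals. The causes of these changes were not tested.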
